A study of Drosophila melanogaster with 2 samples.

Results

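The nuclear genes for proteins of the mitochondrial ribosome were examined in a chromatin immunoprecipitation sequencing (ChIP-seq) study of CG17328, a zinc-finger protein of Drosophila melanogaster. All 73 annotated protein-coding genes whose symbol begins with mRpL or mRpS were taken, out of 13968 protein-coding genes. They comprised 47 large-subunit (mRpL) and 26 small-subunit (mRpS) genes. Both samples came from whole embryos 0 to 24 h old, and so from a mixture of stages and cell types. The embryos were of the strain CG17328-GFP, which carries CG17328 fused to enhanced GFP, and the fusion was pulled down with an antibody against GFP from chromatin sonicated to 200 to 800 bp. These samples formed 1 group of 2 biological replicates, which share a strain and a fly donor in the labels. No untagged or mock library was analysed here, so whether any peak depends on the tagged protein was not tested.

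Mitochondrial ribosomes translate the few messages of mitochondrial DNA, which encode membrane subunits of the respiratory chain and the ATP synthase. Their proteins are all made from nuclear genes and imported, so the mitochondrial ribosome depends on many scattered promoters working side by side. The small subunit decodes the message, and the large subunit joins the amino acids and threads the new chain through an exit tunnel. Some members have a counterpart in the bacterial ribosome, and others occur only in mitochondria.

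Of the 73 genes, 21 (28.8%) had a promoter peak in the list that the authors call conservative. A promoter peak is one whose summit lies within 500 bp of an annotated start site of the gene. The other thresholded series-level list held such a peak for 22 members (30.1%), and the own lists of replicate 1 and replicate 2 held one for 15 members each (20.5%). Among all protein-coding genes the shares in the same lists were 20.1%, 21.0%, 14.2% and 15.8%. The members' share was thus above that of protein-coding genes in each list. Both own lists held a peak for 11 members (15.1%, against 11.7% of protein-coding genes), and the same 11 were in all 4 thresholded lists. Large-subunit genes had a conservative peak in 12 of 47 cases (25.5%) and small-subunit genes in 9 of 26 (34.6%). In both own lists at once there were 4 of 47 and 7 of 26. None of these shares carries a replicate error, and no difference between them was tested.

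Most promoters of these genes were shared with another gene, and nearly all of the peaks lay at such promoters. Of the 73 members, 54 (74.0%) had a start site of another gene within 500 bp of their own, against 34.4% of protein-coding genes. In 53 of the 54 the neighbour was transcribed from the opposite strand, and the exception was mRpL13, which shares its start with CG10602. Among members with a shared promoter, 19 of 54 (35.2%) had a conservative peak, and among all protein-coding genes with a shared promoter 33.2% did. Among members whose promoter is not shared, 2 of 19 (10.5%) had a peak, beside 13.3% of protein-coding genes of that kind. Within each kind of promoter the members' share was thus close to the background. When each summit was given only to the gene of its nearest start, 9 members (12.3%) kept a peak, beside 15.2% of protein-coding genes.

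**Figure D1:**
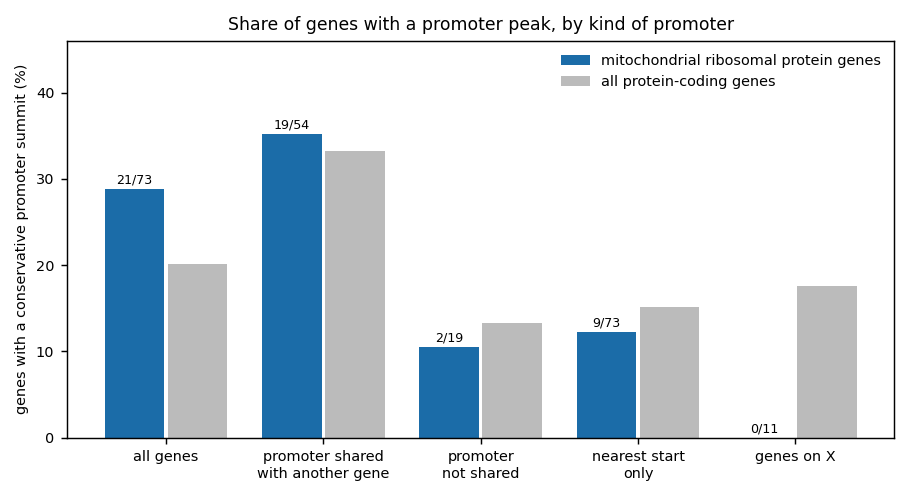
Bars give the percentage of genes with a conservative promoter summit, in blue for mitochondrial ribosomal protein genes (count of genes above each bar) and in grey for all protein-coding genes. The members stand above the background over all genes (28.8% and 20.1%) but close to it among shared promoters (35.2% and 33.2%) and among promoters not shared (10.5% and 13.3%).

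The 21 peaks spanned a wide range of signal, the authors' own value per peak. Their median was 105, beside 109.8 over the 2812 protein-coding genes with a conservative promoter peak. The upper quartile was 445 for the members and 191 for those genes, and the lower quartiles were 67.7 and 74.3. The members among the 100 strongest of the 5807 conservative peaks numbered 4 (5.48%, against 0.637% of protein-coding genes), a limit chosen with these values known. Most members with a peak lay in the middle or low part of the list, and a few lay near its top.

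**Figure D2:**
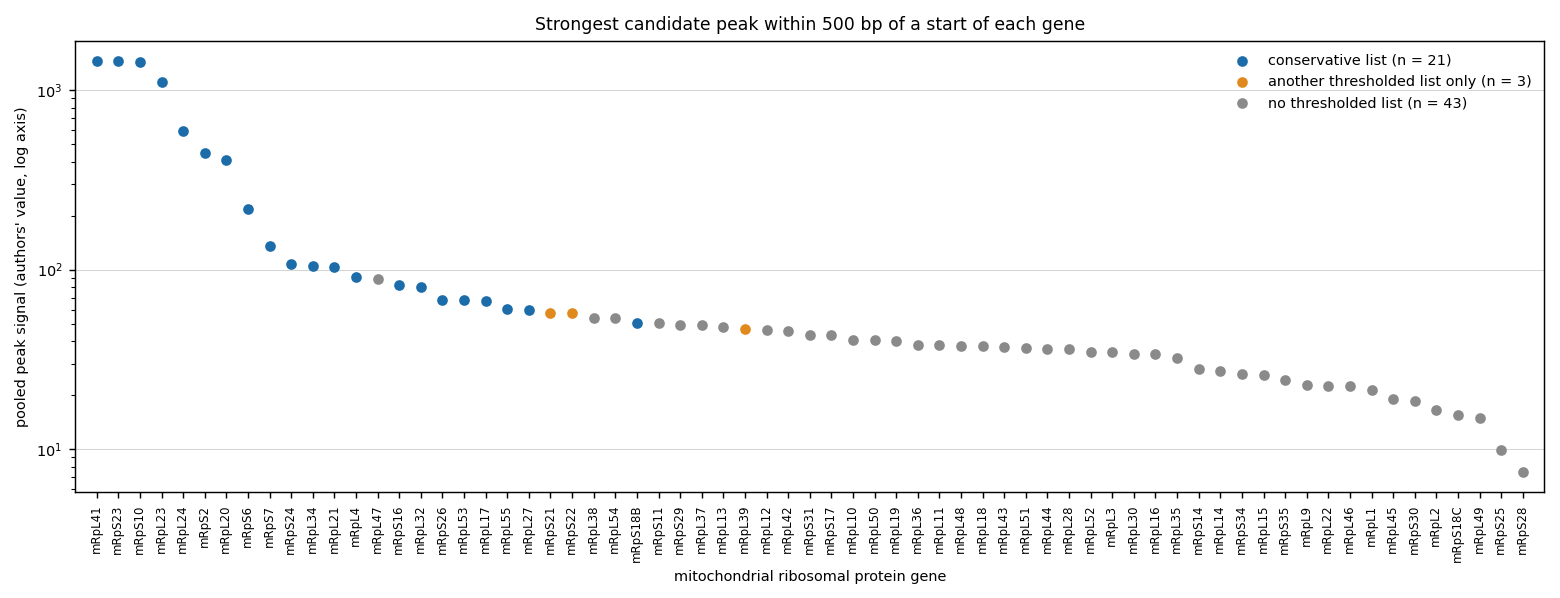
Points give the pooled signal (log axis) of the strongest candidate within 500 bp of a start site in the ranked list, for the 67 members with such a candidate. Blue members are in the conservative list, orange ones only in another thresholded list and grey ones in none. The first 7 lie at 406 or more, and the grey points above the lowest blue one (mRpS18B, 50.6) are mRpL47, mRpL38 and mRpL54.

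Among large-subunit genes the highest signal was at mRpL41, which encodes a protein that has no bacterial counterpart. Its peak lay on 2R from 15217610 to 15217896 (dm6) and measured 619 in replicate 1, 836 in replicate 2 and 1448 in the pooled data, rank 8 of the conservative list. The summit was intergenic, at -141 bp (upstream) of the start site. No other gene starts within 500 bp of mRpL41, so this strong peak has a single candidate gene by the promoter rule. The only other member with an unshared promoter and a peak was mRpL4, whose bacterial counterpart lines the exit tunnel, with a pooled signal of 91.6.

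The peak of mRpL23, whose bacterial counterpart sits at the mouth of the exit tunnel, had a signal of 528 in replicate 1, 574 in replicate 2 and 1104 in the pooled data. It was the only one of the 21 whose summit lay downstream of the member's start, at +83 bp, in an intron of mRpL23 (3L from 2373458 to 2373732). CG9004 starts 24 bp away on the other strand. At mRpL24, whose bacterial counterpart initiates assembly of the large subunit, the signals were 215, 381 and 596 (2L from 4945377 to 4945597). The summit lay -132 bp from mRpL24 and -86 bp from betaggt-I, which encodes a subunit of a protein prenylation enzyme, so it was nearer to the neighbour. At mRpL20, whose bacterial counterpart is an early assembly protein, the signals were 174, 231 and 406 (3L from 13018050 to 13018244). Here too the neighbour was nearer: the summit lay -117 bp from Icmt, which encodes a methyltransferase of prenylated proteins, and -282 bp from mRpL20.

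Of the small-subunit genes, mRpS23 and mRpS10 were the highest. The peak of mRpS23, which encodes a protein found only in mitochondrial ribosomes, measured 631 in replicate 1, 819 in replicate 2 and 1444 pooled (2L from 13835320 to 13835596). Its summit was -388 bp from mRpS23 but only -104 bp from CenG1A, an Arf GTPase-activating protein gene. At mRpS10, whose bacterial counterpart belongs to the head of the small subunit, the signals were 638, 799 and 1433 (3R from 15229391 to 15229677). That summit lay almost midway in the gap to Art3, an arginine methyltransferase gene, at -128 bp from mRpS10 and -129 bp from Art3. At mRpS2 the signals were 162, 275 and 445 (2L from 4850417 to 4850652), with the summit -140 bp from mRpS2 and -82 bp from Mon1, a gene of endosome maturation. These 7 strongest peaks were each higher in replicate 2 than in replicate 1, and all 7 were in all 4 thresholded lists.

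The sequence at the summits is shown for 6 of the 8 strongest members and for 2 members with weaker peaks, mRpL21 and mRpS26, as a contrast. Each line gives the 101 bases centred on the conservative summit, on the plus strand of dm6, taken from the RefSeq copy of the assembly. Capitals mark the word ATTAAT, which was noticed in these sequences and reads the same on both strands.
mRpS23 (chr2L:13835410-13835510): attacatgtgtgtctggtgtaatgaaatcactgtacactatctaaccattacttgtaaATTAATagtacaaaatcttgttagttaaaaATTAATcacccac
mRpS10 (chr3R:15229487-15229587): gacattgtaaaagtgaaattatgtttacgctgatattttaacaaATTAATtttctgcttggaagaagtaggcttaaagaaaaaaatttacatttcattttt
mRpL24 (chr2L:4945443-4945543): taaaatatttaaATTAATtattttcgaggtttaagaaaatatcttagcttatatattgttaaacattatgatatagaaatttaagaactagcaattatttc
mRpS2 (chr2L:4850509-4850609): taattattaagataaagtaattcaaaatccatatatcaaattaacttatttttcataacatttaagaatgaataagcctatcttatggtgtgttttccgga
mRpL20 (chr3L:13018099-13018199): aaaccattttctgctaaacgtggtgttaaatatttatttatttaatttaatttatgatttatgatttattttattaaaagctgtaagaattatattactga
mRpS6 (chr3L:4364420-4364520): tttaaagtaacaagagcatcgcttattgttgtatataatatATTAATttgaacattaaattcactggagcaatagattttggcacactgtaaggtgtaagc
mRpL21 (chr3L:19255231-19255331): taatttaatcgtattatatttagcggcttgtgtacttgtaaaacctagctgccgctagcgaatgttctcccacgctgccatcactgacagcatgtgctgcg
mRpS26 (chr3L:18106212-18106312): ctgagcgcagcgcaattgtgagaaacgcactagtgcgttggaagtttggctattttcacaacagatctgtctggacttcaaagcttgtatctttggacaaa

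The strong summits share a core poor in G and C. At the 7 peaks with a signal of 400 or more, the G+C content of the 101 bases ran from 16.8% at mRpL24 to 28.7% at mRpS23, with a median of 22.8%. At the other 14 it ran from 28.7% to 55.4%, with a median of 35.1%. Those groups touch only at 28.7%, the value of mRpS23, mRpL34 and mRpL27. Over all 21 members the mean was 32.4% ± 10.7 (SD), beside 44.9% ± 6.14 in windows 300 bp to either side, and 18 of 21 summits were lower than their flanks. A dip at the summit was also found over the 2340 conservative peaks at protein-coding promoters. Their mean was 37.6%, beside 43.1% in the flanks, and 1473 of them were lower than their flanks. Among the 7 strong ones the difference to the flanks ranged from -32.2 points at mRpL24 to -1.49 points at mRpS23, whose flanks are A/T-rich themselves. The contrast between strong and weaker peaks is likewise found over all protein-coding promoters: 152 such peaks of 400 or more had a mean of 29.4% ± 8.91 and 2188 weaker ones 38.1% ± 11.6. The limit of 400 was set after the values were seen.

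**Figure D3:**
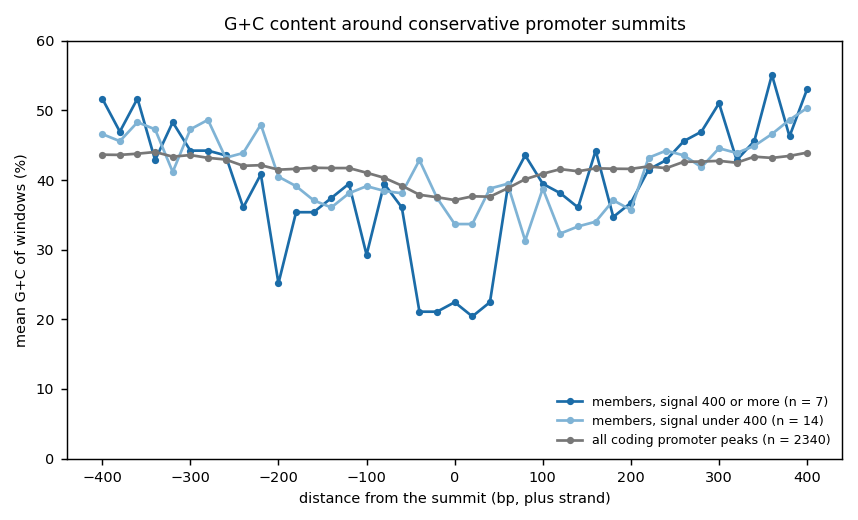
Lines give the mean G+C content in windows of 21 bp every 20 bp around conservative promoter summits, in dark blue for the 7 members with a signal of 400 or more, in light blue for the other 14 and in grey for 2340 peaks at protein-coding promoters. The dark line lies between 20.4% and 22.4% within 40 bp of the summit, and the others do not go below 31.3% and 37.1%.

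ATTAAT lay within 50 bp of the summit at 7 of the 21 members, 4 of them among the 7 strongest. It was at 10.3% of the 2340 conservative peaks at protein-coding promoters and at 13.2% of the 152 strongest of them. A word with the same letters in another order, TAATAT, was at 5 of the 21 members, 2 of them among the 7 strongest. It was at 16.4% of those 2340 peaks and at 30.3% of the 152 strongest. On both strands TAATAT also matches ATATTA, whereas ATTAAT reads the same on each, so the shares of these words are not directly comparable. ATTAAT was noticed in these same members, so its count among them is no test of the word. TATTTTAA, the word that led an earlier search of all peaks, was at 4 of 21 members (mRpS10, mRpS24, mRpL32 and mRpS18B) and at 5.47% of the 2340. Words were sought on both strands, and a word that is absent from this window says nothing about the factor. With so few members these counts only describe the sequences.

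Below the 7 strongest, 4 members had peaks in both own lists with less signal. The peak at mRpS6, the counterpart of bacterial S6, measured 108 in replicate 1, 109 in replicate 2 and 217 pooled, and was the narrowest of the 21 at 139 bp. Cip4 starts 448 bp from mRpS6 on the other strand. At mRpS7, whose bacterial counterpart nucleates assembly of the small-subunit head, the values were 61.0, 75.8 and 135, with Cdk1, the mitotic kinase gene, as the neighbour. At mRpS24, related to S3 in mammals, they were 40.8, 61.5 and 108, with the summit nearer to the adenomatous polyposis coli gene Apc2. The peak between mRpS16 and cg, the Combgap zinc-finger gene, measured 42.6, 43.2 and 82.5, and with 55.4% its summit had the highest G+C content of the 21.

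Another 5 members had a peak in the own list of a single replicate. The peaks of mRpL34, opposite the dystroglycan gene Dg, and of mRpL21, opposite the reptin gene rept, were only in the list of replicate 2. Their signals in the ranked lists were 34.5 and 40.7 in replicate 1 and 69.6 and 65.4 in replicate 2. Those of mRpL4, mRpL32 and mRpS26 were only in the list of replicate 1, at 57.2, 48.3 and 37.1, and measured 35.1, 32.7 and 27.7 in replicate 2. The protein of mRpL32 is known in yeast to be processed by a mitochondrial protease before assembly, and its neighbour qless acts in coenzyme Q synthesis. The summit of mRpS26 lay -113 bp from CG13698 and -317 bp from mRpS26, so it was nearer to the neighbour. The pooled signals of these 5 members ran from 67.7 to 105.

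The remaining 5 conservative peaks passed the threshold only when the replicates were combined. They were at mRpL53 (pooled signal 67.6), mRpL17 (67.0), mRpL55 (60.7), mRpL27 (59.5) and mRpS18B (50.6), and none was in an own list. At mRpL53 the summit lay in an intron of the Argonaute gene AGO1, and mRpL53 shares its start with CG33155 as well. At mRpL55 it lay in the 5′ UTR of ATPsynD, which encodes a subunit of the mitochondrial ATP synthase, 14 bp from that gene's start. At mRpL27 it lay in the 5′ UTR of CG15435. The summit of mRpL17 was -60 bp from Tudor-SN, a nuclease gene, and -339 bp from mRpL17. mRpS18B, opposite Kua, was listed only in the conservative list, at an irreproducible discovery rate (IDR, an estimate of how likely a peak is to fail to repeat) of 0.0098. In the ranked list behind the other series-level list its IDR was 0.845.

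Across the 21 members the replicates gave summits close together, with more signal in replicate 2. Replicate 2 gave the higher signal at 17 of 21, with ratios from 0.615 at mRpL4 to 2.02 at mRpL34 and a median of 1.25. Over 2789 protein-coding genes with a conservative promoter peak and a candidate in each replicate the median ratio was 1.22, and replicate 2 was higher at 74.4% of them. The scale of the signal in each replicate is not known, so these ratios show only that the members' median was near that of the other promoters. The summits of the replicates were a median of 11 bp apart (23 bp over those genes). The largest gap, 195 bp, was at mRpS18B.

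**Figure D4:**
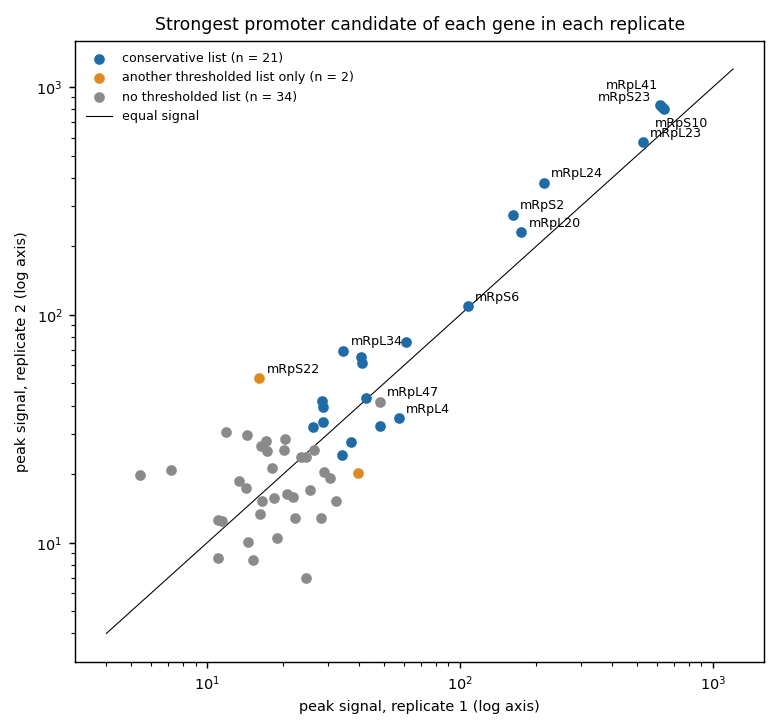
Each point is a member, placed by the signal of its strongest promoter candidate in the ranked list of replicate 1 (horizontal) and of replicate 2 (vertical), both on log axes, for the 57 members with a candidate in each. Blue, orange and grey mark the lists as before and the line marks equal signal. The strongest members lie along the line, most of them above it, and the grey points scatter around it below 50.

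Most summits lay upstream of the member's start, and a relation to the gap between neighbouring starts was not tested. In 20 of 21 cases the summit was upstream of the member's start, with a median of -140 bp, and over all protein-coding genes with a conservative promoter peak 82.1% were upstream, with a median of -118 bp. The summits of mRpL41 and mRpL4, which have no neighbouring start, lay at -141 and -124 bp. Of the 19 peaks with a neighbouring start, 17 had the summit upstream of the nearest start of each gene. In 2 of the 17, mRpL53 and mRpL27, the summit still lay inside the neighbour as annotated, which has another start site. All 19 also lay within 500 bp of the neighbour's start, which for a summit between such starts follows from the definition of a neighbour. The nearest start belonged to the member in 9 of the 21 cases and to another gene in 12. Those 9 were mRpL41, mRpS10, mRpL23, mRpS6, mRpS7, mRpL4, mRpS16, mRpL32 and mRpS18B. A single peak between divergent starts cannot be given to either gene from these files.

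**Figure D5:**
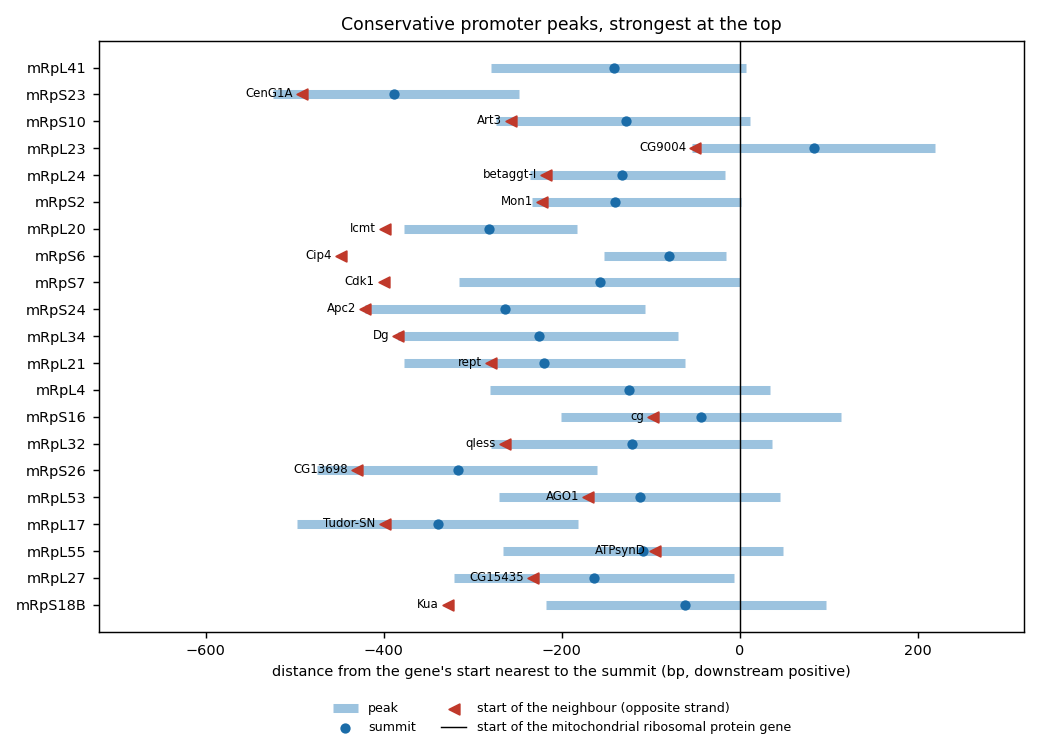
For the 21 members with a conservative promoter peak, bars span the peak, dots mark the summit and red triangles the start of the neighbouring gene on the opposite strand, all in bp from the member's start nearest to the summit (vertical line). Most summits lie between both starts, 12 of 21 nearer to a start of another gene.

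Another 3 members had a promoter peak in a thresholded list but not in the conservative one. mRpS21, opposite the chaperone gene Droj2, was in the other series-level list (57.5) and in the list of replicate 1 (39.3), and measured 20.3 in replicate 2. mRpS22, opposite CG5003, was in the other series-level list (57.2) and in the list of replicate 2 (52.8), with 16.1 in replicate 1. mRpL39, opposite the proteasome gene Prosbeta2, was only in the list of replicate 2 (44.9) and had no candidate in replicate 1. Each of these was in the own list of a single replicate.

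No thresholded list held a promoter peak for the other 49 members. In the ranked list behind the conservative one, 43 of them had a candidate, with signals from 7.52 at mRpS28 to 88.3 at mRpL47 and a median of 36.1. The 5 highest were mRpL47 (88.3), mRpL38 (53.9), mRpL54 (53.7), mRpS11 (50.6) and mRpS29 (49.4). mRpL54, a protein found only in mitochondrial ribosomes, had an IDR of 0.0108 there, just outside the threshold. Its IDR was 0.182 in the other series-level ranked list and 0.0847 and 0.0711 in those of replicates 1 and 2. The other 6 members (mRpS9, mRpL40, mRpS33, mRpL33, mRpS18A and mRpS5) had no candidate there, and mRpS9 had none in any of the 4 ranked lists. Of the 43 candidates, 6 had an IDR of 0.05 or less in that list. The list holds 124555 candidates, so a candidate within 500 bp of a start is common in it and says little about these promoters. Over all protein-coding genes 79.9% had a candidate, with a median of 33.6, and over the members 67 of 73 (91.8%) did, with a median of 43.5.

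mRpL47, which encodes a large-subunit protein related to bacterial L29, differed from the rest of this group. Its candidate (3R from 9515849 to 9516164) measured 48.1 in replicate 1, 41.6 in replicate 2 and 88.3 pooled. The IDR was 0.000583 and 0.00034 in the ranked lists of the series and 0.00185 and 0.00466 in those of the replicates, so it was past the authors' 0.01 in all 4, yet it was in none of the thresholded lists. Of the ranked peaks at the conservative threshold, 140 overlapped no conservative peak, 84 of them on 3R. Within 500 kb of this candidate there were 16 of them, itself included, beside 57 of the 5807 conservative peaks. The listings name a further file, whose content they do not describe, as an input of the thresholded lists alone, and its part in this was not tested. The starts of CG8176 and Kdm3, a histone demethylase gene, lie 99 bp from that of mRpL47.

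None of the 11 members on the X chromosome had a promoter peak in any of the 4 thresholded lists. On X, 17.6% of protein-coding genes had one in the conservative list. The best candidates of 10 X-linked members ran from 9.90 at mRpS25 to 53.9 at mRpL38, with a median of 27.7, beside 30.2 over the X-linked protein-coding genes with a candidate. The remaining one, mRpL33, had none in that ranked list. The count on the autosome arms was 7 of 12 on 2L (20.2% of protein-coding genes), 4 of 12 on 2R (20.4%), 6 of 17 on 3L (21.3%) and 4 of 21 on 3R (21.0%). With 11 genes a count of 0 describes these promoters and is no measure of the chromosome.

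A further feature of these promoters did not follow the peaks. The E-box word CAGCTG lay within 100 bp of the 5′-most start of 38 of the 73 members (52.1%), against 14.1% of protein-coding genes. It was there in 51.9% of the members with a shared promoter and 52.6% of the others, beside 18.5% and 11.8% of protein-coding genes of those kinds. Members with a conservative peak had it in 12 of 21 cases and members without in 26 of 52. Within 50 bp of the summits it was at 0 of the 21 (at 3 within 100 bp), and at 5.43% of the peaks at protein-coding promoters. So the word was common at the starts of these genes, with or without a peak. With a share of 5.43% at those other peaks, 0 of 21 summits cannot tell the members from them.

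The words near the start are shown for 4 members with a conservative peak and 4 without, each as 30 bases on the strand of the gene with CAGCTG in capitals. The genes mRpS6, mRpL46 and mRpL11 are on the plus strand and the others on the minus strand. Their places in dm6 are given with each name, and the distance of the word from the start follows below.
mRpL24 (chr2L:4945324-4945353): ttcagttctcaaCAGCTGattgcaagccgc
mRpS6 (chr3L:4364552-4364581): ctttccttgcatCAGCTGttaacactatca
mRpL23 (chr3L:2373715-2373744): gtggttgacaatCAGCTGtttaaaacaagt
mRpS24 (chr3R:24163508-24163537): cgtcacgtcaatCAGCTGttgctggacgca
mRpL46 (chr3L:1777425-1777454): tgtgccgcaaatCAGCTGttccggctctgg
mRpL11 (chr3R:14511821-14511850): cagcaataccatCAGCTGttgctgcttctt
mRpS33 (chr3R:16436566-16436595): gcacttggaaatCAGCTGtcgcttgttttt
mRpS25 (chrX:14582959-14582988): tagccgaccgatCAGCTGttcgcattacac

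In these the centre of the word lay from -25 bp (upstream, at mRpL23) to +23 bp (at mRpL24 and mRpS24) of the start. The words shown all have the form ACAGCTGA on either strand, so they do not stand for all 38 members with the word. Of those 38, 17 had it in that form and 9 as ACAGCTGT, and the rest had other bases beside it. This was observed after the sequences were seen. ACAGCTGA lay within 100 bp of the start at 23.3% of members and 4.40% of protein-coding genes. The DRE word TATCGATA, bound by the factor DREF, lay within 500 bp of the start at 18 members (24.7%) and 12.3% of protein-coding genes. Among shared promoters it was at 20.4% of members and 20.4% of protein-coding genes, and among the others at 7 of 19 members (36.8%) and 8.05% of protein-coding genes. GGTCACAC, the core of promoter motif 1, was within 500 bp at 15 members (20.5%) and 10.9% of protein-coding genes, at 25.9% and 19.0% among shared promoters, and at 5.26% and 6.66% among the others. Within 50 bp of the summit, TATCGATA was at 0 of the 21 members with a conservative peak and GGTCACAC at 1, mRpS16. They were at 2.65% and 1.79% of the conservative peaks at protein-coding promoters. With shares this low, counts among 21 summits cannot tell the members from those peaks.

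Other genes of mitochondrial gene expression had a promoter peak about as often as protein-coding genes in general, and a few had strong ones. Of 54 listed genes of mitochondrial gene expression and protein quality control, 10 (18.5%) had a conservative promoter peak, near the background of 20.1%. None of 8 translation factors and neither tko nor bonsai, a pair of small-subunit protein genes with other names, had one. Of 7 genes of RNA processing and decay, PNPase, the polynucleotide phosphorylase (1419 pooled), and RluA-1, a pseudouridine synthase (1164), did, with signals like those of the strongest members. Among 7 transcription genes it was PolrMT, the mitochondrial RNA polymerase (55.5), and the terminator family gene mTerf5 (92.5). Among 15 mitochondrial aminoacyl-tRNA synthetases it was ProRS-m (96.9) and ArgRS-m (60.8), and among 4 genes of mitochondrial DNA maintenance mtSSB (313), the single-strand binding protein. Of 11 chaperones and proteases there were 3, the protease genes Lon (499) and ClpP (67.2) and the chaperone gene Hsc70-5 (155). Of these 10 genes, only RluA-1 and mtSSB have a promoter that is not shared with another gene. PNPase shares its promoter with Gprk2 and Lon with PIG-F, so such peaks cannot be given to a single gene from these files. The peaks of PolrMT, ArgRS-m and ClpP were in the own list of neither replicate.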

How the data were processed

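ChIP-seq peak lists of 2 biological replicates were used. The deposited files are peak lists on dm6, per the file listings: a ranked and a thresholded list for each sample, and 2 of each derived from the alignments of both samples, with a further input that the listings do not describe. No aligner or peak caller is named in the labels or listings. The signal in the deposited lists is the authors' value per peak, without error or read depth, which is unknown. The deposited score follows the IDR, the deposited −log10 column used holds IDR values, and every thresholded peak has a score of at least 830, an IDR of 0.01. The ranked list that holds all 5807 conservative peaks line for line was taken as the one behind them.

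Computed here, in Python 3.11.15 with pandas 2.3.3: summits were set against 24111 starts of 18277 genes (Ensembl release 115, BDGP6, without transposable elements), and words and G+C were read from RefSeq's copy of the same assembly. For a gene with several summits in its window the one of highest signal was used. Replicate values are those of each sample's own lists. No set test was made, so counts stand beside the share of all protein-coding genes. The scripts were tested on planted summits. Of 66 symbols of other mitochondrial genes 54 distinct genes were found. The members, lists, words and rules were chosen with earlier results of these data known. Named are all members with a thresholded promoter peak, the 5 highest candidates among the rest, most of their neighbours, and listed genes with a conservative peak. Further genes were named after their values were seen.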

Additional observations from a re-analysis of the deposited data

How the results depend on the processing

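The count of 21 members with a conservative promoter peak was within 1.5 times of itself in the other series-level list (22), at an IDR of 0.05 or less (27), with windows of 250 bp (16) and 1000 bp (22), with any base of the peak in the window (22), and in the own list of either replicate (15 to 15). The shares of all protein-coding genes there were 21.0%, 26.4%, 16.2%, 23.6%, 21.3%, and 15.8% and 14.2%. The count fell to 12 among the 2903 strongest conservative peaks (11.7% of protein-coding genes) and to 9 with the nearest start only (15.2%), where each summit counts for fewer genes. Members with a shared promoter numbered 54 at 500 bp, 26 at 250 bp, 60 at 1000 bp and 54 with protein-coding neighbours only. The 11 members in both own lists stayed 11 when peaks had to overlap by 50%. The median signal was 104 in all 3 alternatives (105 as reported), the mean G+C 31.0% with 25 bp and 34.9% with 100 bp on each side, and ATTAAT, a word chosen after seeing the data, was at 6 and 9 members with those windows. No paired analysis was possible because there is 1 group and no test. Without read counts the depth behind a missing peak is unknown, so a promoter without a peak is not shown to be unbound.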
